A study of Homo sapiens with 4 samples.

Results

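The genes described here repair DNA by homologous recombination, by the Fanconi anemia pathway or by mismatch repair. They were chosen by annotation, not by a cut on measured values, although earlier results of these data were in view when the group was proposed. They come from the 14416 genes of the deposited expression table: every gene whose pathway text names at least 1 of these 3 pathways, with the sliding clamp PCNA left aside because it belongs to many other pathways as well. This gave 91 genes, of which 41 carried the recombination annotation, 54 the Fanconi annotation and 22 the mismatch repair annotation. The annotations overlap: 22 genes carried more than 1 of them, and 4 genes, the subunits RPA1, RPA2, RPA3 and RPA4 of the single-strand binding protein, carried all 3.

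The study measured N6-methyladenosine (m6A), a methyl mark inside messenger RNA, in OMM 2.3 cells, a line of human uveal melanoma that the labels give as wild type. The treated cells received meclofenamic acid (MA) for 24 h, a nonsteroidal anti-inflammatory drug that also inhibits the m6A demethylase FTO, and the control cells (NC) received the solvent DMSO for the same time. Poly(A) RNA was fragmented, and an input library and a library of fragments bound by an m6A antibody (RIP) were sequenced for each condition. There were thus 4 libraries, 1 for each kind and condition, so no difference below has a replicate check and no p-value is given.

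Homologous recombination repairs a double-strand break by copying an intact sister chromatid: the ends are trimmed back, and BRCA2 and its partners prepare the single strand to pair with the matching sequence. The Fanconi pathway removes links between both DNA strands: a core complex attaches ubiquitin to FANCI and FANCD2 at a blocked fork, after which nucleases, translesion polymerases and recombination finish the repair. Mismatch repair corrects errors of replication, with MutS proteins that find the mismatch and MutL proteins that direct the removal of the new strand. Many of these genes are expressed most in dividing cells.

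Levels are FPKM values, which correct for transcript length and sequencing depth. The library totals behind them, recovered from the values, were 37041597 for the NC input and 41630895 for the MA input. The depth of the RIP libraries is unknown. All 7 melanocyte markers reached 1 FPKM, with a summed level of 7307 FPKM in NC and 3172 in MA, so the labelled cell type was matched although the sum was lower in MA. Among the markers of fibroblasts, immune cells, endothelium and epithelium, only the fibroblast gene LUM reached 1 FPKM. Over all 10564 genes that reached 1 FPKM in an input, 1087 were higher in MA by 2-fold or more and 315 lower. With both inputs rescaled to a median difference of 0, these counts were 767 and 443.

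Among recombination, Fanconi and mismatch repair genes, the share with an input level 2-fold or more higher in MA was above that of all genes, and the share lower by as much was near it. Differences are given as log2((MA FPKM + 1)/(NC FPKM + 1)), which understates the difference of low genes, and a gene was counted at 2-fold or more on that scale. Of the 88 genes that reached 1 FPKM in an input, 21 (23.9%) were 2-fold or more higher in MA, against 10.3% of all genes. POLD1 and TELO2 (2.27%) were lower by as much, against 2.98% of all genes, and 65 lay between. The median difference was 0.51, against 0.11 over all genes, and the 88 values went from -1.30 to 1.72. In 62 genes (70.5%) the difference was above 0, against 56.7% of all genes, and in 26 it was below 0. Since the group was proposed with earlier results known, these counts describe the libraries and are no test of the group. In bulk RNA, a larger share of cells expressing a gene and more of its RNA in each cell cannot be told apart.

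Counting error was small beside most of these differences. The 95% interval of the FPKM ratio, from recovered whole reads, lay above 1 in 57 genes, lay below 1 in 21 and held 1 in 10. The reads are the fewest that fit the values, so an interval can be too wide. Without the pseudocount, the FPKM ratio itself was at least 2 in 28 genes (31.8%), against 17.8% of all genes, and at most 0.5 in 3 (3.41%), against 4.45%. SYCP3, a protein of meiotic chromosomes, was listed at 0 in MA and at 0.0172 FPKM in NC. RPA4 was at 0.185 FPKM with MA and 0.294 with NC, and POLN at 0.945 and 0.373, so these 3 genes were under the minimum. BRCA2, CENPS and RAD51B reached 1 FPKM in MA only and SLX1A in NC only, so for them the minimum itself favoured a difference. Without a minimum, the count was 21 of 91 (23.1%), against 7.54% of all genes.

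The count of higher genes depended on the scale. With a pseudocount of 5 FPKM, 4 of the 21 (BRCA1, RBBP8, RFC1 and USP1) were still at 2-fold, a share of 4.55% against 2.58% of all genes. With both inputs rescaled to a median difference of 0, 14 remained (15.9%, against 7.26% of all genes), and EXO1, FANCI, MSH3, NBN, PALB2, RAD50 and REV1 lay just under 2-fold.

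The 3 pathways overlapped in their ranges. Of 39 recombination genes, 12 were 2-fold or more higher and POLD1 was lower, with a median of 0.62. Fanconi genes had 11 of 52 higher, TELO2 lower and a median of 0.39. Mismatch repair genes had 4 of 21 higher, POLD1 lower and a median of 0.61. As shares, these were 30.8%, 21.2% and 19.0% higher, against 10.3% of all genes. For other repair genes of the same annotation, without those described here, the shares were nearer to that of all genes, and no difference between the sets was tested. Non-homologous end joining, which rejoins broken ends directly, had 1 of 10 higher (10.0%) and a median of 0.18. Base excision repair had 3 of 27 (11.1%) and -0.03, nucleotide excision repair 3 of 27 (11.1%) and 0.13, and DNA replication 3 of 21 (14.3%) and -0.03. None of those genes was lower by 2-fold. POLD1, which was lower, and POLD3 and RFC1, which were higher, also carry the nucleotide excision repair or DNA replication annotation. They were taken out of those sets. PCNA itself was at 242 FPKM with MA and 246 with NC, a difference of -0.03.

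**Figure D1:**
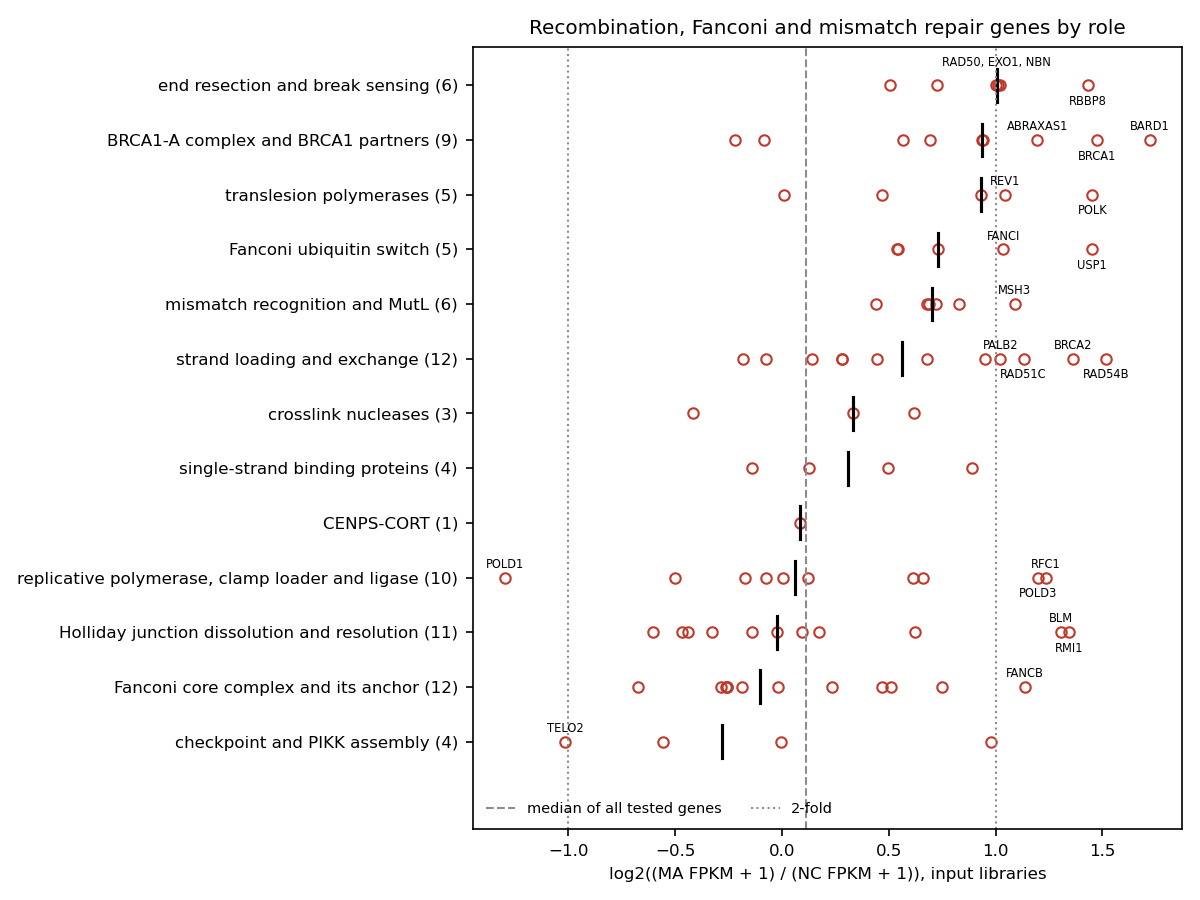
Log2 difference between the MA and NC inputs for 88 repair genes in rows by role, with the number of genes in brackets; each circle is 1 gene, the black bar is the median of the role, the dashed line the median of all tested genes and the dotted lines 2-fold. End resection, BRCA1 partners and translesion polymerases lie mostly to the right of the dashed line, while Holliday junction genes and those of the Fanconi core and its anchor lie on both sides of it.

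Ordered by role, the plot of differences by role puts end resection and break sensing at the top. Genes of this role had a median of 1.01, and 4 of 6 were higher by 2-fold or more. Beside this and the role counts below, the shares of all genes were 10.3% higher, 2.98% lower and 56.7% above 0. The roles are small and were drawn up with earlier results known. RBBP8 encodes CtIP, which starts resection, and was at 28.4 FPKM with MA and 9.91 with NC, a difference of 1.43. Without the pseudocount its log2 ratio was 1.52 (95% counting interval 1.44 to 1.60). NBN, which carries the break-sensing complex to the nucleus and recruits ATM, was at 13.3 in MA and 6.06 in NC (1.02). EXO1, the exonuclease of long-range resection and of mismatch repair, was at 20.3 and 9.56 (1.01). These 3 genes were between 2.12 and 2.87 times their NC level.

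RAD50, the tethering subunit beside NBN, was at 4.10 FPKM with MA and 1.55 with NC and sat at the 2-fold bound (1.00). MRE11, the nuclease of the same complex, was at 3.49 and 1.72 (0.72), and the kinase ATM at 4.74 and 3.05 (0.50). These last 2 genes were above 0 but under 2-fold. For MRE11 the FPKM values themselves were 2.03-fold apart, which shows how the pseudocount lowers the difference of a gene at this level.

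BRCA1 and its binding partners held the largest difference of the whole group. BARD1, which pairs with BRCA1 to form a ubiquitin ligase, was at 8.20 FPKM with MA and 1.79 with NC, a difference of 1.72. These values rest on at least 1910 and 371 reads, and the log2 ratio without pseudocount was 2.20 (2.03 to 2.36). BRCA1 was at 15.9 and 5.10 FPKM (1.47), with a log2 ratio of 1.64 (1.56 to 1.73). Both subunits of the ligase were therefore higher in MA, at different levels.

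ABRAXAS1, the scaffold of the BRCA1-A complex that binds ubiquitin chains at breaks, was at 4.67 FPKM with MA and 1.48 with NC (1.19). The complex's deubiquitinase BRCC3 was at 8.35 and 3.89 (0.94), and its ubiquitin-binding subunit UIMC1 at 10.7 and 6.90 (0.56). Its 2 other subunits did not share this direction. BABAM1 was at 50.9 FPKM with MA and 59.4 with NC (-0.22), and BABAM2 at 25.9 and 27.5 (-0.08). Among the other partners, the helicase BRIP1 was at 3.78 and 1.48 (0.94) and TOPBP1, an activator of ATR, at 27.9 and 16.9 (0.69). Of 9 genes in this role, 3 were past 2-fold and 7 above 0.

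In the role of BRCA2, PALB2 and their partners in strand loading and exchange, 4 of 12 genes were past 2-fold, with a median of 0.56. RAD54B, a DNA translocase of strand exchange, was at 5.18 FPKM with MA and 1.16 with NC, a difference of 1.52. BRCA2, which acts on resected single-stranded DNA, was at 3.99 and 0.944 (1.36), with a log2 ratio of 2.08 (1.93 to 2.24). PALB2, which links BRCA2 to BRCA1, was at 11.3 and 5.04 (1.02). These 3 genes were higher in MA, and BRCA2 was the lowest of them in both inputs.

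The paralogs RAD51B, RAD51C, RAD51D, XRCC2 and XRCC3, which help form the filament of recombination, did not move alike. RAD51C was at 27.3 FPKM with MA and 11.9 with NC (1.13) and XRCC2 at 6.88 and 3.08 (0.95). RAD51B was at 1.23 and 0.833 (0.28), RAD51D at 2.20 and 2.37 (-0.07) and XRCC3 at 19.2 and 21.9 (-0.18), so XRCC3, the partner of RAD51C, lay on the other side of 0. The motor RAD54L was at 19.0 and 17.1 (0.14), the annealing protein RAD52 at 2.39 and 1.49 (0.44), and SEM1, a small partner of BRCA2, at 47.0 and 29.0 (0.68).

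Genes that take apart joined DNA molecules were split. BLM, the helicase of the dissolving complex, was at 9.49 FPKM with MA and 3.24 with NC (1.31), and its partner RMI1 at 8.18 and 2.62 (1.34). TOP3A, the topoisomerase of the same complex, was at 2.38 and 3.60 (-0.44), and RMI2 at 16.3 and 20.7 (-0.33). The 4 subunits of 1 complex thus lay on both sides of 0, each beyond its counting interval. Among the nucleases, MUS81 was at 30.4 and 33.6 (-0.14), with its partners EME1 at 15.1 and 9.43 (0.62) and EME2 at 1.30 and 2.18 (-0.47). SLX4, a scaffold for nucleases, was at 3.22 and 2.74 (0.17), and TOP3B, a topoisomerase that also acts on RNA, at 22.3 and 22.7 (-0.02). Over the 11 genes of the role, the median was -0.02.

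SLX1A and SLX1B, the nuclease that SLX4 activates, are near-identical copies, so their reads are uncertain. SLX1A was at 0.742 FPKM with MA and 1.65 with NC (-0.60), on at least 36 and 71 reads. SLX1B was at 1.67 and 1.51 (0.09), on at least 81 and 65 reads. Their promoters show the same likeness in the RefSeq table (GRCh38.p14). The stretch around a match to the E2F motif TTTNNCGC (capitals), at chr16:30193768-30193797 for SLX1A and chr16:29454426-29454455 for SLX1B, both on the plus strand, has the same letters:
SLX1A: cggtccaggctTTTCGCGCttgccatgtgt
SLX1B: cggtccaggctTTTCGCGCttgccatgtgt

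The Fanconi core complex holds the ubiquitin ligase of the pathway. Its 8 subunits among the genes described here had a median of -0.14. The median was -0.10 for the 12 genes of the role, which includes the proteins that anchor the complex. FANCB, a subunit of the catalytic module, was the single one of 12 genes past 2-fold, at 4.01 FPKM with MA and 1.28 with NC (1.14). FANCL, the ligase subunit itself, was at 11.9 and 6.68 (0.75), while FAAP100, the third protein of that module, was at 8.52 and 10.4 (-0.26). The other core subunits were all under 2-fold. FANCA was at 5.19 and 4.26 (0.23), FANCC at 3.10 and 3.15 (-0.02), FANCE at 11.3 and 14.0 (-0.29), FANCF at 20.4 and 24.7 (-0.26) and FANCG at 6.02 and 7.40 (-0.26). The counting intervals of FANCE, FANCF and FANCG lay below 0, as did that of FAAP100.

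The proteins that anchor the core complex on DNA did not share a direction either. FANCM, the translocase of the anchor, was at 2.00 FPKM with MA and 1.17 with NC (0.47), FAAP24, its partner, at 5.94 and 6.90 (-0.19), and CENPX, a histone-fold protein bound to FANCM, at 26.0 and 42.1 (-0.67). CENPS, the partner of CENPX, was at 1.27 and 0.597 (0.51). CENPS and the read-through gene CENPS-CORT (1.72 and 1.56 FPKM, 0.09) overlap, so reads of one may be counted for the other.

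Of the 5 genes of the ubiquitin switch, 2 were higher in MA by 2-fold or more, and the differences of the other 3 lay between 0.54 and 0.73. Of all genes, 56.7% were above 0. USP1, the enzyme that removes ubiquitin from FANCD2 and PCNA, was at 48.8 FPKM with MA and 17.3 with NC (1.45), with a log2 ratio of 1.50 (1.43 to 1.57). Its cofactor WDR48 was at 13.4 and 7.69 (0.73). FANCI, 1 of 2 proteins in the clamp that receives ubiquitin, was at 42.9 and 20.4 (1.04), and its partner FANCD2 at 20.5 and 13.8 (0.54). UBE2T, the conjugating enzyme that supplies ubiquitin, was at 96.3 and 66.0 (0.54). The genes of the switch had a median level of 42.9 FPKM in MA, against 7.27 FPKM for the 8 core subunits. In NC these medians were 17.3 and 7.04 FPKM.

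Of the nucleases that cut at a crosslink, ERCC4 (XPF) was at 3.79 FPKM with MA and 2.12 with NC (0.62) and its obligate partner ERCC1 at 17.5 and 23.7 (-0.42). FAN1, a nuclease recruited by FANCD2, was at 5.93 and 4.51 (0.33). The pair that works as 1 enzyme lay on both sides of 0, and no gene of this role reached 2-fold.

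Translesion polymerases copy across damaged bases, and 2 of the 5 above the minimum were past 2-fold. POLK was at 6.99 FPKM with MA and 1.92 with NC (1.45), and REV1, which recruits the other polymerases, at 12.6 and 5.60 (1.05). POLI was at 4.65 and 1.96 (0.93), and REV3L, the catalytic subunit of polymerase zeta, at 12.1 and 8.48 (0.47). POLH, which bypasses ultraviolet damage, was even at 15.4 and 15.3 (0.01).

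The checkpoint role held 1 of the 2 genes that were lower by 2-fold. TELO2, which helps kinases of the ATM and ATR family to mature, was at 6.43 FPKM with MA and 14.0 with NC, a difference of -1.02 and a log2 ratio of -1.13 (-1.23 to -1.02). ATR, the kinase of stalled forks, was at 5.17 and 2.13 (0.98) and so just under 2-fold on the scale with the pseudocount. Without the pseudocount its FPKM values were 2.42-fold apart, a log2 ratio of 1.28 (1.15 to 1.41). Its partner ATRIP was even at 3.60 and 3.61 (0.00). HES1, a Notch target that the annotation places in the Fanconi pathway, was at 15.6 and 23.4 (-0.56).

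Mismatch recognition and MutL genes had a median of 0.70, and 1 of them was past 2-fold. MSH3, which finds loops of several bases, was at 9.70 FPKM with MA and 4.03 with NC (1.09). MSH6, which finds single mismatches, was at 36.1 and 22.1 (0.69). Per length, MSH6 was thus above MSH3 in both inputs. Of the MutL genes, MLH3 was at 6.56 and 3.58 (0.72) and PMS2 at 6.45 and 4.49 (0.44). PMS2 has many pseudogenes, so its reads are uncertain.

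**Figure D2:**
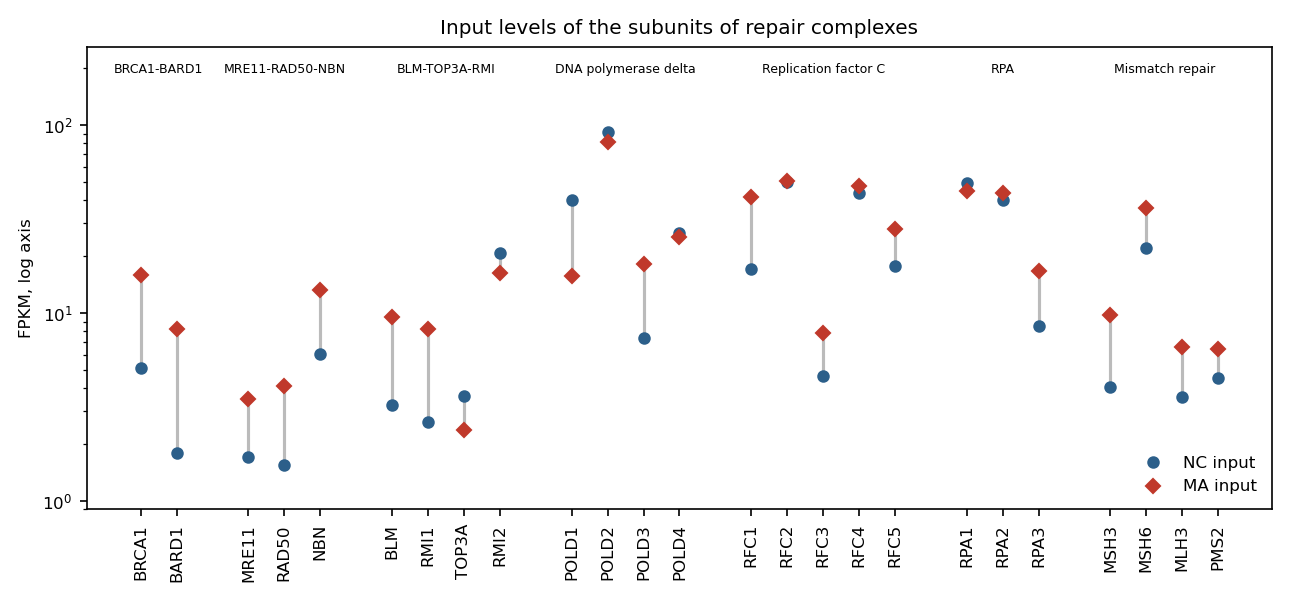
FPKM on a log axis for the subunits of 7 repair complexes or families in the NC input (blue circles) and the MA input (red diamonds), 1 library each; grey lines join both values of a gene. BRCA1 and BARD1, the MRE11 complex and the 4 plotted mismatch repair genes have each MA value above the NC value, while the BLM complex, DNA polymerase delta, replication factor C and RPA hold subunits that differ in direction or are even.

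Among the proteins that fill repaired gaps, subunits of 1 enzyme passed 2-fold in opposite directions. POLD1, the catalytic subunit of DNA polymerase delta, was at 15.7 FPKM with MA and 40.1 with NC, a difference of -1.30 and a log2 ratio of -1.35 (-1.42 to -1.28). POLD3, an accessory subunit of the same polymerase, was at 18.2 and 7.37 (1.20). POLD2 was at 81.1 and 91.5 (-0.17) and POLD4 at 25.2 and 26.6 (-0.07, above 0 after rescaling to TPM). In the NC input POLD1 was thus above POLD3 and in the MA input below it, as the plot of subunit levels shows.

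Replication factor C, which loads the sliding clamp, was uneven as well. RFC1, its large subunit, was at 41.6 FPKM with MA and 17.1 with NC (1.24). RFC3 was at 7.85 and 4.60 (0.66), RFC5 at 27.9 and 17.9 (0.61), RFC4 at 47.3 and 43.4 (0.12) and RFC2 at 50.1 and 49.9 (0.00). LIG1, the ligase that seals the gap, was at 22.2 and 31.8 (-0.50). Of these 10 gap-filling genes, 2 were higher and 1 was lower by 2-fold.

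None of the 4 single-strand binding genes above the minimum reached 2-fold, and their median was 0.31. RPA1, the large subunit of RPA, was at 44.3 FPKM with MA and 48.9 with NC (-0.14), RPA2 at 43.7 and 40.0 (0.12) and RPA3, the small subunit, at 16.6 and 8.53 (0.89). SSBP1, the mitochondrial single-strand binding protein, was at 34.9 and 24.5 (0.50). The differences of RFC2, RFC4, RPA2 and POLH were below 0 with both inputs rescaled to a median of 0, and those of ATRIP, FANCC and TOP3B were above 0 as TPM, so none of these has a direction.

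Higher repair genes were most frequent among long transcripts. Transcript lengths were recovered from the FPKM values as the shortest that fit, and all tested genes were divided into 3 equal groups, below 2475 bp, up to 4847 bp and above. Among the longest, 11 of 32 repair genes (34.4%) were higher by 2-fold or more, against 13.2% of all genes, and 29 of 32 (90.6%) were above 0, against 66.9%. In the middle group 6 of 25 (24.0%) were higher, against 11.5%, and in the shortest 4 of 31 (12.9%), against 6.92%. Both sets thus held more higher genes among longer transcripts, and the part of length in the differences was not tested. The recovered length of EXO1 (274 bp) was below the exonic length of its own NC peaks (1298 bp), as was that of ABRAXAS1 (365 against 398 bp), LIG1 (625 against 893 bp) and EME2 (1017 against 1596 bp), so some genes stand in too short a group.

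**Figure D3:**
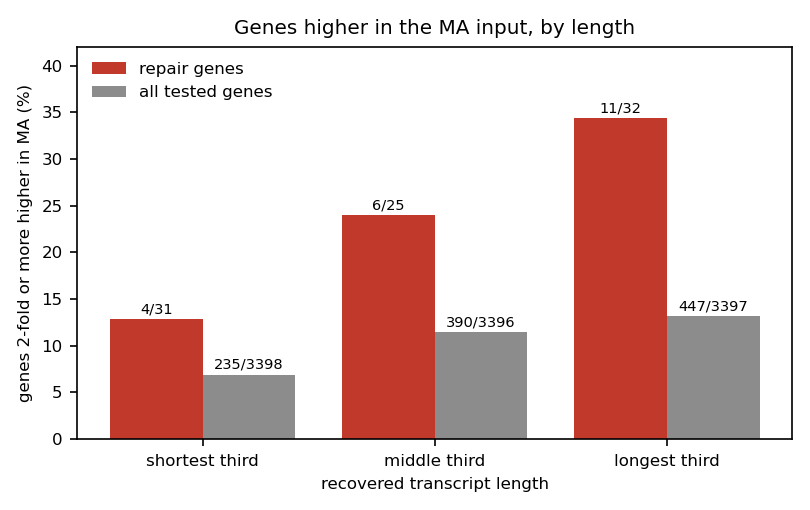
Share of genes that were higher in the MA input by 2-fold or more (vertical axis, percent) in 3 groups of recovered transcript length, for repair genes (red) and all tested genes (grey); numbers above bars are genes higher of genes tested. The share goes from 12.9% to 34.4% in repair genes and from 6.92% to 13.2% in all genes.

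By level, measured as the mean of both inputs, 8 of 32 repair genes in the lowest of 3 equal groups were higher by 2-fold or more (all genes 11.7%), 8 of 25 in the middle group (13%) and 5 of 31 in the highest (6.16%). On the scale with the pseudocount, genes at the 2-fold bound were RAD50 (1.00) and EXO1 (1.01) inside and ATR (0.98) and XRCC2 (0.95) outside.

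Promoters of repair genes were searched for 3 short motifs in the RefSeq table (GRCh38.p14), which gives 250 bases before to 50 after each start and held 80 of the 91 genes, 78 of them tested. TTTNNCGC is a form of the site bound by E2F factors, which control genes of the S phase. It was present on either strand in 19 of 78 promoters (24.4%, exact 95% interval 15.3 to 35.4%), against 11.4% of tested genes and 6.90% of all promoters of that length. The 19 include the near-identical SLX1A and SLX1B and the overlapping CENPS and CENPS-CORT, which the interval treats as separate promoters. It was not most frequent in the genes that were higher in MA: 3 of 17 of those (17.6%, 3.80 to 43.4%) and 16 of 61 others (26.2%, 15.8 to 39.1%) held it. CCAAT was in 28 of 78 promoters (35.9%), near the 38.0% of tested genes, and TTTGAA, the cell cycle homology region, in 6 of 78 (7.69%, against 9.30%). A match describes letters and shows no binding.

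The following stretches show the E2F motif, in capitals, in 2 genes that were higher in MA and 2 that were not, from the RefSeq table (GRCh38.p14), each read 5′ to 3′ along its gene's strand. A capital run that begins with GCG is the motif on the opposite strand. In MSH3, a second match on the gene's own strand overlaps the marked one and is not wholly in capitals. They lie at chr4:39366512-39366541 (RFC1, minus strand), chr5:80654538-80654567 (MSH3, plus strand), chr9:95317737-95317766 (FANCC, minus strand) and chr19:48170440-48170469 (LIG1, minus strand).
RFC1: gatccccctacTTTAGCGCccccgccaaaa
MSH3: ggtcaagtttgGCGCGAAAttgtggccgcc
FANCC: ttcgtcggaatTTTCCCGCgacgccgcggg
LIG1: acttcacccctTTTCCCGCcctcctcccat
The input differences of these genes were 1.24, 1.09, -0.02 and -0.50, so the motif stood in promoters across the range.

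Most repair transcripts carried m6A peaks in both conditions. A peak is a stretch where the authors found RIP reads enriched over input, and the NC list held 196 peaks in 77 of the 91 genes and the MA list 188 peaks in 75. A peak was present in both lists for 71 of the 88 tested genes (80.7%, exact 95% interval 70.9 to 88.3%), against 76.0% of all tested genes. All 21 genes that were higher in MA had a peak in both lists, against 85.0% of all such genes. The intervals cover counting error only.

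Few genes had a peak in a single list. FANCD2, POLD1, POLD2, RAD51D, RFC4 and XRCC3 had 1 peak each in NC and none in MA (6.82% of tested genes, against 7.29% of all). The POLD1 peak (chr19:50398925-50399441, GRCh38.p13, exon) had an authors' fold enrichment of 1.93 and the FANCD2 peak (chr3:10101235-10101434, 3' UTR) one of 6.0. RAD51B, RAD54L and RFC5 had 1 peak each in MA and none in NC (3.41%, against 4.04% of all), and POLN, under the minimum level, had 1 in MA as well. No peak was listed in either condition for BABAM2, FANCG, MUS81, RPA2, RPA3, RPA4, SLX1A, SLX1B, SYCP3 and UBE2T. RPA4 and SYCP3 were under the minimum level, and the other 8 were 9.09% of tested genes, against 12.7% of all. The shares in a single list were near those of all genes.

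Positions were largely shared. Peaks that touched were merged to regions, and 152 of 193 NC regions (78.8%, 72.3 to 84.3%) met a region of the MA list, against 73.8% of all NC regions. In the other direction 144 of 187 MA regions (77.0%, 70.3 to 82.8%) met one of the NC list, against 79.6%. These spans include introns. With both lists limited to peaks within 1 exon, 55.5% of NC regions (45.7 to 64.9%) and 54.5% of MA regions (44.2 to 64.4%) had a partner. The shares of all regions were 59.5% and 69.5%, and the MA interval lay below the second of these. A peak that met only a peak spanning several exons then counted as having no partner. These shares can therefore understate how many positions were shared. When 50% or more of each region had to lie in the other, the shares were 38.3% and 39.6%, against 46.3% and 51.2%.

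Peaks of repair genes were labelled exon more often and 3' UTR less often than peaks in general. A label does not fix a position, since overlapping peaks can be labelled differently. The RMI1 peak of the MA list, labelled 5' UTR, covered all 3 RMI1 peaks of the NC list, which were labelled exon. FANCF was labelled exon in NC and 3' UTR in MA over nearly the same span. Shares also depend on how a stretch is divided into peaks. Peaks annotated as exon, apart from UTRs and start and stop codons, made up 44.4% in NC (37.3 to 51.6%) against 33.8% of all peaks, and 41.0% in MA (33.9 to 48.3%) against 34.0%, where the lower bound lay just under the share of all peaks. The 3' UTR held 30.6% in NC (24.2 to 37.6%) against 42.1%, and 30.9% in MA (24.3 to 38.0%) against 42.8%. Peaks of 1 gene share a transcript and are not independent. In NC, 12 genes had 3 or more exon peaks: BRCA1, BRCA2, BRIP1, EXO1, FANCB, FANCM, MLH3, RAD50, REV3L, RFC1, RMI1 and SLX4. In MA, 7 genes did: BRCA2, FANCM, MLH3, POLK, RAD50, REV3L and SLX4. The same count was not made over all genes, so neither number can be called high or low.

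Without BRCA1, BRCA2 and MLH3, chosen after their values were seen, the exon share was 38.2% in NC (30.9 to 46.0%) and 36.5% in MA (29.2 to 44.2%), and both intervals then held the share of all peaks. The 3' UTR share without them was 32.9% in each list (25.9 to 40.6%), still below that of all peaks. The longest group of transcripts again includes BRCA1, BRCA2 and MLH3. For repair genes of that group, the NC list had an exon share of 55.9% (45.7 to 65.7%). The MA list had one of 55.4% (45.2 to 65.3%), and all peaks of the group had 38.8% in each list. Most peaks of BRCA1, BRCA2 and MLH3 were labelled exon in both lists, so these genes raised both shares. The share of this group without them was not computed, so an excess apart from them was not tested.

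**Figure D4:**
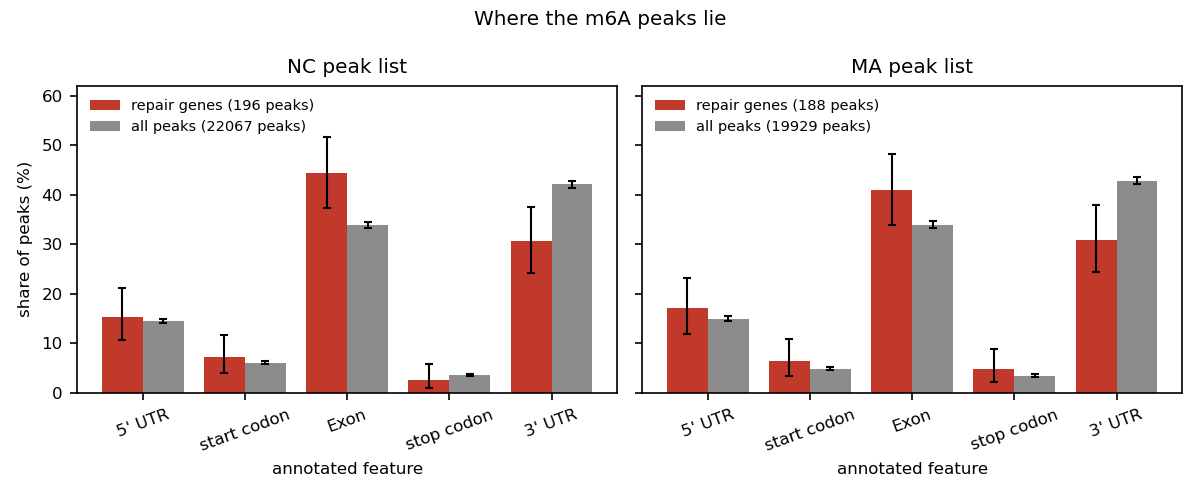
Share of peaks (percent) in 5 annotated features for repair genes (red) and all peaks (grey), in the NC list (left) and the MA list (right); error bars are exact 95% binomial intervals. Repair genes have the larger exon share and the smaller 3' UTR share in both lists.

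BRCA1 shows how the same exon was divided differently in the lists. It had 10 peaks in NC and 3 in MA, yet the summed exonic lengths were close, at 2957 and 2599 bp. Between chr17:43092286-43094783 (GRCh38.p13, minus strand), 6 NC peaks followed each other at short gaps. The MA list had 2 peaks there, chr17:43092386-43092835 with a fold enrichment of 4.78 and chr17:43092935-43094683 with 6.17. The number of peaks and the length under them thus differed between the lists in unlike ways.

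MLH3 likewise had 8 peaks in NC and 4 in MA with 2546 and 2990 bp. RMI1 had 3 in NC (1144 bp) and 1 in MA (1884 bp), whose span, chr9:84000952-84002835, covered all 3. PALB2 was divided the other way, with 1 NC peak of 2291 bp and 3 MA peaks of 2045 bp. Over tested repair genes, 24 had more peaks in MA (27.3%, against 19.7% of all genes) and 27 more in NC (30.7%, against 31.2%).

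The exonic length under peaks was larger in MA for repair genes. It summed to 77250 bp in NC and 89898 bp in MA, at a mean of 394 and 478 bp per peak, against 398 and 432 bp over all peaks. Of tested genes, 47 (53.4%) had more peak length in MA, against 38.9% of all genes. The 21 genes that were higher in the MA input had 25821 bp in NC and 35722 bp in MA, a ratio of 1.38. All genes higher by 2-fold had a ratio of 1.29, and 15 of the 21 (71.4%) had more length in MA, against 67.4% of those. The part of the input level in the peak calls was not tested.

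**Figure D5:**
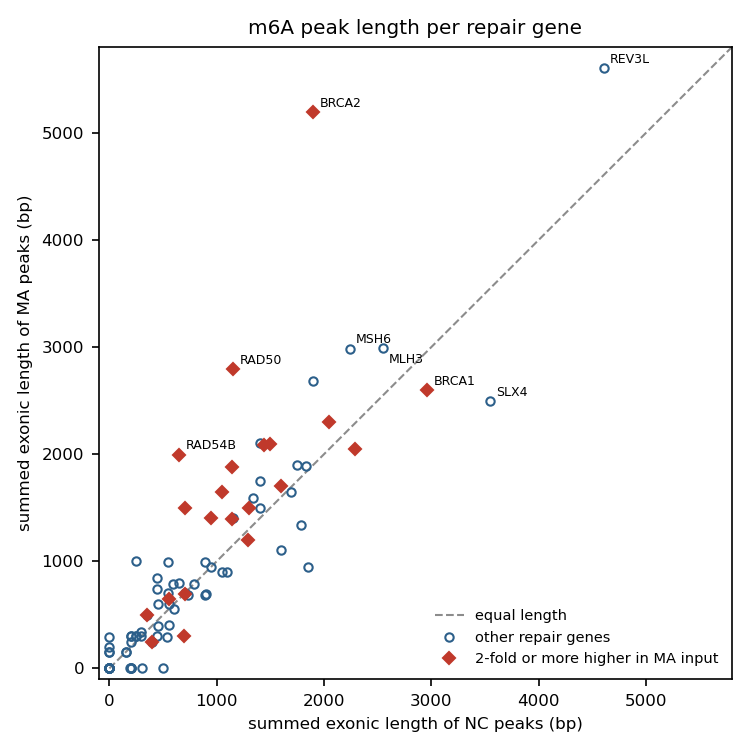
Summed exonic length of peaks in the NC list (horizontal axis, bp) and the MA list (vertical axis, bp) for 91 repair genes; filled diamonds are the 21 genes that were 2-fold or more higher in the MA input, and the dashed line marks equal length. BRCA2, RAD50 and RAD54B lie farthest above the line, and SLX4 lies farthest below it.

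BRCA2 had the largest difference in peak length. It had 8 peaks over 1901 bp in NC and 11 over 5192 bp in MA, of which 7 and 10 were annotated as exon. RAD54B had 2 peaks (650 bp) in NC and 5 (1996 bp) in MA, and RAD50 had 5 in each list with 1150 and 2795 bp. All 3 genes had an input level under 2 FPKM in NC and are among those higher in MA. REV3L held the most peak length in MA, with 4 peaks over 5603 bp against 6 over 4605 bp in NC. SLX4 had 7 peaks over 2497 bp in MA and 6 over 3543 bp in NC.

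The fold enrichment of a peak is the authors' value and ranks peaks within its own list only. Its median was 4.00 for repair genes in NC, against 3.57 for all NC peaks, and 3.13 in MA, against 3.07. Shared regions had higher medians (4.37 in NC and 3.43 in MA) than those in a single list (2.53 and 2.50). Among NC peaks with a partner in MA, the highest was in the 3' UTR of XRCC2 (chr7:152646714-152646962, GRCh38.p13, minus strand) at 19.0, and a second XRCC2 peak, in an exon (chr7:152648701-152649298), was at 12.0. REV1 had a 5' UTR peak at 13 (chr2:99435916-99439274), EME2 a 3' UTR peak at 12.7 (chr16:1779262-1780407) and ATRIP an exon peak at 12.0 (chr3:48459859-48460647).

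Among NC peaks with no MA partner, the highest was at the start codon of SSBP1 (chr7:141738469-141738678) with a fold of 14.0. Those of FANCI (chr15:89244022-89258704, 5' UTR, 7.0) and FANCD2 (6.0) followed. At 5.0 were 4 peaks, in exons of FANCB (chrX:14844891-14845091), FANCM (chr14:45176651-45176951) and SLX4 (chr16:3597544-3597894) and in the 3' UTR of SLX4 (chr16:3581994-3582642). Among MA peaks with no NC partner, the highest were in the 3' UTR of BRCC3 (chrX:155125568-155125817, 9.0) and in exons of POLN (chr4:2208167-2208463, 7.0) and ATR (chr3:142562594-142562893, 6.50). The 3' UTR of RAD50 (chr5:132642512-132642662, 6.0) came next, and 3 peaks were at 5.0, in the 3' UTR of ERCC1 (chr19:45412848-45413146), that of RFC3 (chr13:33849162-33849311) and at the stop codon of REV1 (chr2:99400627-99400977). Of these genes, FANCD2 and POLN had no peak in the other list.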

How the data were processed

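The deposited table gives FPKM values that the authors computed for the MA and NC inputs, and 1 deposited peak list per condition gives each peak's fold enrichment ratio, p-value and false discovery rate, per the file headers. The build GRCh38.p13 and the tools ChIPseeker, deepTools, HISAT, HISAT2 and Trimmomatic come from the submitters' processing notes, without versions. No aligner role, read counter, peak caller or annotation release is given in the sources used here. Repeated peak rows (132 in NC, 99 in MA) were counted once, and starts were raised by 1. Peaks that touched on one strand were merged, and regions were shared at an overlap of at least 1 bp.

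Whole reads and lengths behind the FPKM values were recovered as the smallest that fit, in 97.1% of 13055 genes and in 90 of the 91 repair genes. The procedure was tested on simulated data, where 85.7% of 2914 resolved genes had their true reads and nearly all of the rest a whole fraction. Intervals of ratios and shares are exact 95% binomial intervals, and they cover counting error only, and PCR copies were not told apart from separate molecules. Differences used a pseudocount of 1 FPKM and a minimum of 1 FPKM in at least 1 input, over all genes.

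The genes, the roles and the motifs were chosen with earlier results of these data known. Full values were given for the 3 genes of each role with the largest difference, for genes past 2-fold, for genes with a peak in 1 list and for the 5 most enriched peaks, with ties, that were shared, in NC only or in MA only. Every gene could be named, but the values of a few are not reported here, although they stay in the counts and medians. Alternatives were other pseudocounts, minimum levels, scalings, gene sets, peak thresholds and overlaps. Python 3.11.15, NumPy 2.4.6, SciPy 1.17.1, pandas 2.3.3 and matplotlib 3.10.9 were used.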

Additional observations from a re-analysis of the deposited data

How the results depend on the processing

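With 1 library per group, no alternative could leave out a replicate. No paired analysis was possible because each group had 1 library and no test was run. The count of repair genes higher in MA was 4 with a pseudocount of 5 FPKM, and the count lower was then 1 (POLD1). Without genes shared with nucleotide excision repair or DNA replication, 1 gene was lower (TELO2). With the other alternatives the higher count went from 14 to 27, against 21 as reported, and the share of all genes moved with it: 27 (TPM, 30.3%) went with 16.3%, 26 (pseudocount of 0.1, 29.5%) with 17.0% and 14 (rescaled medians, 15.9%) with 7.26%. The median difference went from 0.32 (pseudocount of 5) to 0.65 (TPM) and stayed above that of all genes. Without genes that have a near-identical copy or an overlapping gene, an alternative added after seeing the data, 21 of 83 were higher. With peaks at a fold enrichment of 2 or more, 2 of the 91 genes had a peak in MA only. Without that threshold 4 of the 91 did (4.40%, against 3.94% of all 14416 genes). The share of all genes at the threshold was not computed, so the 2 cannot be called few or many. Shared regions made up 38.3% in NC and 39.6% in MA with an overlap of 50%. They made up 55.5% and 54.5% with both lists limited to peaks within 1 exon, where partners spanning several exons did not count. The missing depth of the RIP libraries limits every comparison of peaks between lists.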
